A study of Drosophila melanogaster with 4 samples.

Results

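In developing wing discs of Drosophila melanogaster, 3136 genomic regions carried an anti-GFP peak in 1 of 2 Osa-GFP libraries and in neither yw library. These single-replicate regions were 3136 of the 9599 regions left after all peaks on arms 2L, 2R, 3L, 3R, 4 and X that shared at least 1 bp had been joined across the 4 libraries. Of them, 1954 came from Osa-GFP replicate 1 and 1182 from Osa-GFP replicate 2, and each held 1 peak. The regions were selected on the peak calls of the authors' caller, so their presence in 1 list and absence from the others is the rule and not a result. They were set beside 3344 regions with a peak in both Osa-GFP replicates, of which 1765 had no yw peak (Osa-GFP-specific) and 1579 also had a yw peak (shared). They were also set beside 2563 regions with a peak in 1 yw library and in no other library, 337 from yw replicate 1 and 2226 from yw replicate 2.

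The Osa-GFP group consisted of females with a GFP tag on Osa and the yw group of females without that tag, with 2 libraries each. In CUT&RUN an antibody, here against GFP, tethers a nuclease to chromatin and the nuclease releases the DNA fragments beside it, so yw discs give what the antibody and nuclease return without a GFP target. All libraries came from wing discs of wandering larvae raised at 25 °C, with 20 to 22 discs per library. The labels do not say how the tag was made, whether larvae carried 1 or 2 tagged copies, or whether each replicate had its own cross. The spread within a genotype may therefore be technical. A whole disc holds the wing pouch, hinge and notum epithelium together with muscle precursors and tracheal cells, and the peaks do not tell these apart.

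Osa is the large subunit that marks one form of the SWI/SNF (Brahma) nucleosome remodeler, a complex that uses ATP to move or evict nucleosomes at promoters and enhancers. In the wing disc the complex is known for its part in growth, in vein and margin patterning and in the activity of signalling-dependent enhancers. Many wing patterning genes are long and lie among many enhancers, which can stand far from the start site. The study's title concerns the constraint of enhancer activity by this complex. The set described here bears on how the part of the Osa-GFP signal that recurs in no other library lies relative to the part that recurs.

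The 4 libraries held 5820 and 4987 peaks on the arms in Osa-GFP replicates 1 and 2, against 774 and 4535 peaks in yw replicates 1 and 2. The peak lists carry no total read counts. The deposited folds gave back whole fragment numbers at every summit and a mean background of 0.472 and 0.460 fragments per position in the Osa-GFP libraries, against 0.120 and 0.481 in the yw libraries. Osa-GFP replicates 1 and 2 and yw replicate 2 were thus of like depth, and yw replicate 1 was shallower. The absence of a yw peak therefore rests mainly on yw replicate 2.

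Single-replicate regions were low and narrow beside the peaks that both Osa-GFP libraries shared. In Osa-GFP replicate 1 the median summit height was 6 fragments in its 1954 regions (10th to 90th percentile 4 to 9) and 11.5 fragments in the regions of both replicates. In Osa-GFP replicate 2 it was 5 fragments in its 1182 regions (4 to 8) and 10 fragments in the regions of both replicates. The caller's fold, the ratio of summit fragments plus 1 to background plus 1, had a median of 4.76 in the regions of replicate 1 alone and 4.11 in those of replicate 2 alone. The median width was 174 bp and 172 bp in these sets, and 510 bp in the regions of both replicates. The lowest height called in either list was 4 fragments, and 16.6% of the regions of replicate 1 alone and 27.2% of those of replicate 2 alone stood exactly at it. The corresponding shares were 1.08% and 1.94% in the regions of both replicates. These heights describe the set, since low peaks are the ones a second list can most easily lack.

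**Figure D1:**
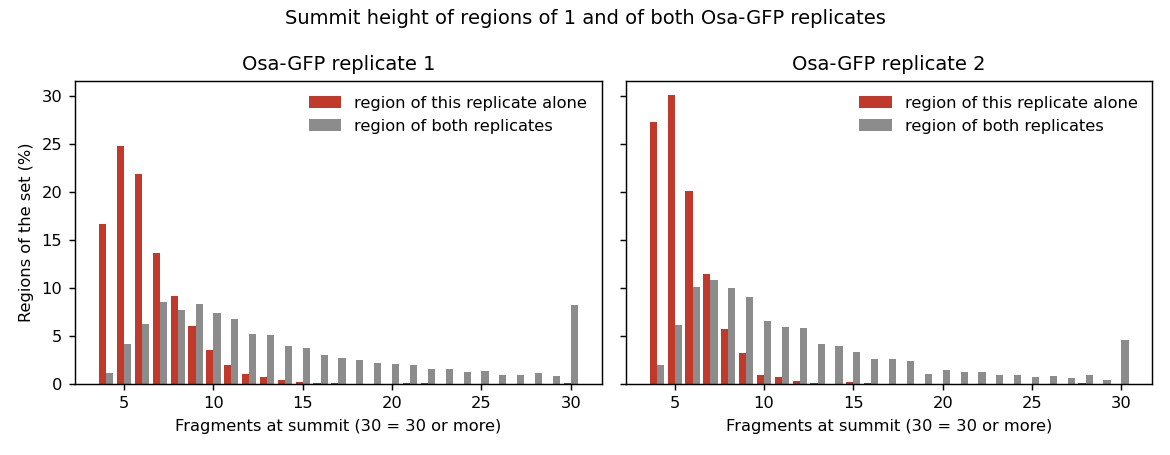
Height of the peak summit in whole fragments (x axis, values of 30 or more pooled) against the share of regions (y axis, percent) for regions of 1 Osa-GFP replicate alone (red) and of both replicates (grey), with Osa-GFP replicate 1 on the left and replicate 2 on the right. Regions of 1 replicate alone pile up at 4 to 8 fragments, with medians of 6 and 5, and the regions of both replicates spread to the right with medians of 11.5 and 10.

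The counting error at such heights is wide. The exact 95% Poisson interval of 4 fragments runs from 1.09 to 10.2 and that of 6 fragments from 2.20 to 13.1, and such intervals cover counting error only. A summit needed 9 fragments for its interval to lie above the 4 fragments at which the other list begins. In Osa-GFP replicate 1 alone, 273 of 1954 regions (14.0%) reached that height, and in replicate 2 alone 66 of 1182 (5.58%) did. In the regions of both replicates, 72.4% of the replicate 1 peaks and 61.1% of the replicate 2 peaks reached it. For most single-replicate regions the interval thus reached down to the lowest height called in the other list or below it. The lists give no fragment number for these sites in the other Osa-GFP library. Whether the sites were lower there was therefore not tested.

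The 1 bp rule placed some near-touching peaks on either side. Just inside it, a replicate 1 peak at chr2L:9387909-9388097 (build dm6, fold 4.08) ended 1 base before a replicate 2 peak at chr2L:9388098-9388443 (fold 4.79). Pairs on 2R at 16516359 and 16516360 and on 3L at 15175628 and 15175629 also touched without sharing a base. Just outside it, the peaks at chrX:12507477-12507692 and chrX:12507692-12507877 (folds 4.76 and 3.42) shared 1 bp and so count as 1 region of both replicates. Pairs on 2R at 22154615 and at 21056934 shared 3 and 4 bp. Of the 3136 regions, 69 (2.20%) had a peak of the other Osa-GFP library within 50 bp, 286 (9.12%) within 200 bp and 660 (21.0%) within 500 bp.

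A few single-replicate regions were tall. In replicate 1, 87 regions (4.45%) had a −log10 q of 10 or more, q being the caller's adjusted p, and in replicate 2, 17 (1.44%) did. The tallest lay inside spok, which encodes a cytochrome P450 of ecdysone synthesis, at chr3R:3344838-3344947. It had a fold of 74.7 from 109 fragments (Poisson interval 89.5 to 131) and ranked 4 in its list, and it lay 174519 bp from the nearest region of both replicates. No other region of replicate 1 alone stood among the first 500 ranks of its list. The next tallest, each with a fold of 15.6 from 22 fragments, were at chr3L:14145997-14146228, nearest to the Sox-family transcription factor gene Sox21b, and at chr3R:9612814-9612999, inside CG8312. These lay 441 and 489 bp from Osa-GFP-specific regions. The other regions among the 8 tallest of replicate 1 were nearest to CG17684, the cuticle protein gene Cpr66D, CG7557, the transcription factor gene cbt (within the span of ush) and the receptor gene mthl13, with folds between 10.9 and 14.9.

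In replicate 2 the tallest region lay inside mamo, which encodes a zinc-finger transcription factor, at chrX:13986392-13986653, with a fold of 19.9 from 28 fragments (Poisson interval 18.6 to 40.5), rank 171. An Osa-GFP-specific region of 11 and 5 fragments in replicates 1 and 2 stood 4128 bp away. The next 7 had folds of 8.90 to 11.6 and were nearest to the immunoglobulin adhesion gene DIP-delta, CG42238, CG13073, TRAM, the nuclear protein gene sbb, the vein transcription factor gene kni and CG17896. Of these, the region at sbb, at chr2R:18346676-18346896, lay 232 bp from a shared region of 55 and 37 fragments in Osa-GFP replicates 1 and 2. Tall regions of 1 library thus stood both beside strong shared sites and far from any.

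By shares of gene context, single-replicate regions lay about where any position of the arms lies, and unlike the yw regions they did not gather at gene ends. Their median distance to a gene end was larger than that of all positions. Context was read from region centres against protein-coding gene spans as within 500 bp of either gene end, inside a gene beyond that, or outside genes. Gene-end positions held 13.9% of the 3136 regions (95% Wilson interval 12.7 to 15.2), 10.4% of Osa-GFP-specific regions (9.08 to 11.9), 32.9% of yw 1-library regions (31.1 to 34.7) and 15.1% of all positions, taken every 100 bp. Inside genes lay 57.6% of single-replicate regions, 56.5% of Osa-GFP-specific regions, 45.3% of yw 1-library regions and 56.5% of all positions. Outside genes lay 28.5%, 33.1%, 21.9% and 28.4% of the same sets. The median distance to the nearest gene end was 4862.5 bp for single-replicate regions, 5935 bp for Osa-GFP-specific regions, 1930 bp for yw 1-library regions and 3907 bp for all positions. For all regions of both replicates it was 5019 bp. The gene-end share of these regions was 13.4% (12.3 to 14.6), close to the 13.9% of single-replicate regions. The shared regions among them had 16.7% at gene ends (15.0 to 18.6).

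**Figure D2:**
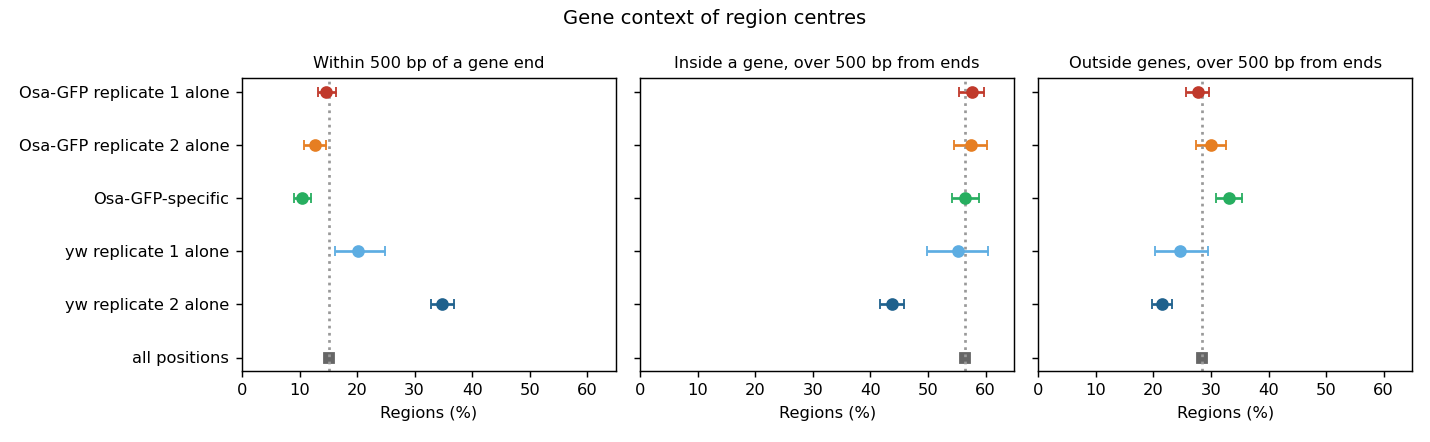
Share of regions (x axis, percent) centred within 500 bp of a gene end, inside a gene and outside genes for regions of Osa-GFP replicate 1 alone, replicate 2 alone, Osa-GFP-specific regions, the regions of each yw replicate alone and all positions; bars are 95% Wilson intervals and the dotted line is the share of all positions. At gene ends the Osa-GFP replicates sit at 14.7% and 12.6%, near the 15.1% of all positions, and the yw replicates at 20.2% and 34.8%.

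The contexts differed between the region sets by two-sided Fisher's exact tests across regions, adjusted by Benjamini-Hochberg over 12 tests; regions are not replicates, so these tests describe the lists. Against yw 1-library regions, the gene-end share of single-replicate regions differed by −18.9 percentage points (Fisher's exact test, adjusted p = 1.67e-64), and by −8.51 points without yw replicate 2. By the same exact test their inside-gene share was 12.3 points higher (adjusted p = 7.92e-20) and their outside-gene share 6.65 points higher (adjusted p = 2.23e-08). Against Osa-GFP-specific regions, by the same exact test, the gene-end share differed by 3.48 points (adjusted p = 0.00069) and the outside-gene share by −4.55 points (adjusted p = 0.00142), while the inside-gene share differed by 1.07 points (adjusted p = 0.513). All regions of both replicates, shared ones included, had 13.4% at gene ends, and single-replicate regions were not tested against them. The gene-end difference from Osa-GFP-specific regions lost its call with replicate 2 alone (2.18 points, Fisher's exact p = 0.0748). It did so too where only peaks of a −log10 q of 10 or more were kept in every list, which changes the members (2.35 points, Fisher's exact p = 0.115). Removal of yw peaks itself moves this share: the 508 regions of 1 Osa-GFP replicate that also held a yw peak had 34.8% at gene ends, and these combined with the single-replicate regions had 16.8%.

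The context shares of the replicates were close to each other. Regions of replicate 1 alone and replicate 2 alone had 14.7% and 12.6% at gene ends (adjusted p = 0.147), 57.6% and 57.4% inside genes (adjusted p = 0.941), and 27.7% and 29.9% outside genes (adjusted p = 0.214), by the same Fisher tests. Between genotypes the gene-end share averaged 13.6 ± 1.47% in Osa-GFP libraries and 27.5 ± 10.3% in yw libraries (SD, n = 2 each). The library values did not overlap, and the exact permutation test over the 6 assignments of libraries gave its smallest possible two-sided p of 0.33, so the design cannot reach a threshold of 0.05.

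Single-replicate regions stood close to the regions that both Osa-GFP replicates shared. The median distance from a region's centre to the nearest such region was 5420.5 bp for single-replicate regions, 21579 bp for yw 1-library regions and 32893 bp for all positions outside those regions. Within 5 kb lay 49.0% of single-replicate regions (47.2 to 50.7), 23.5% of yw 1-library regions (21.9 to 25.2) and 14.8% of all positions. Within 1 kb the shares were 24.3%, 8.43% and 4.04%. At the far end, 12.8% of single-replicate regions (401), 26.6% of yw 1-library regions and 38.3% of all positions were more than 50 kb away. The rule fixed that the regions do not overlap, and its 1 bp limit also decided whether close peaks counted as separate regions. Where peaks up to 1000 bp apart were joined, the share within 5 kb was 30.5%.

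**Figure D3:**
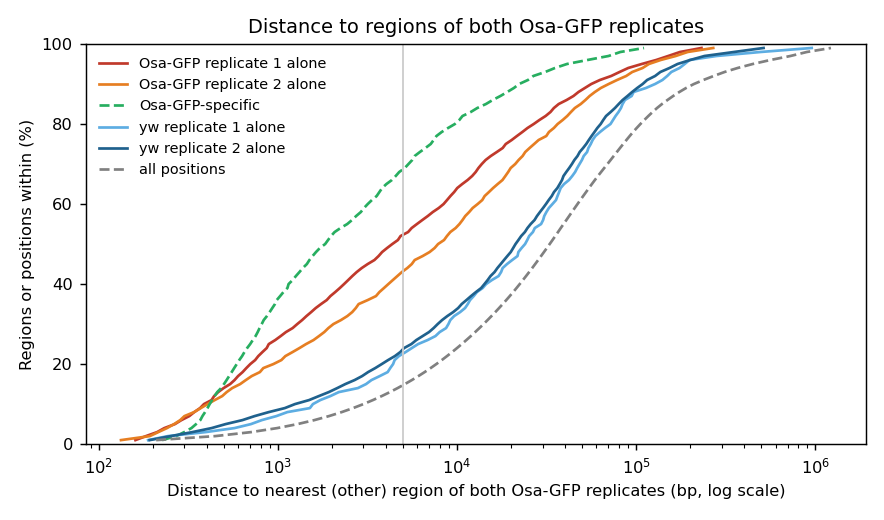
Cumulative share (y axis, percent) of regions or positions within a given distance (x axis, bp, log scale) of the nearest region of both Osa-GFP replicates, with 5 kb marked by a grey line; for Osa-GFP-specific regions the nearest other region was taken. At 5 kb the curves stand at 52.4% and 43.4% for Osa-GFP replicates 1 and 2 alone, 68.7% for Osa-GFP-specific regions, 22.6% and 23.7% for yw replicates 1 and 2 alone, and 14.8% for all positions.

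The share within 5 kb exceeded that of yw 1-library regions by 25.5 points (Fisher's exact test, adjusted p = 1.05e-87), and by 15.0 points where peaks up to 1000 bp apart were joined. It differed by −19.7 points from that of Osa-GFP-specific regions, measured to the nearest other region of both replicates (68.7%, exact test, adjusted p = 7.69e-41). It was 8.95 points higher for regions of replicate 1 alone than for regions of replicate 2 alone (52.4% and 43.4%, exact test, adjusted p = 2.71e-06). These tests too ran across regions, which are not replicates, so they describe the lists. Single-replicate regions thus lay between the recurrent Osa-GFP sites and the yw regions in this measure, and the replicates differed. Over libraries the share averaged 47.9 ± 6.33% in Osa-GFP and 23.1 ± 0.794% in yw (SD, n = 2 each), with no overlap and the smallest possible exact permutation p of 0.33.

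The taller a single-replicate region was, the more often it stood near a region of both replicates. In Osa-GFP replicate 1 alone the share within 5 kb was 44.7% at a −log10 q under 3, 53.3% from 3 to 5, 60% from 5 to 10 and 63.2% at 10 or more. In Osa-GFP replicate 2 alone it was 35.5%, 50.2%, 57.0% and 64.7% in the same bins, the last with 17 regions. In yw replicate 2 alone it was 23.7%, 23.01%, 26.3% and 19.5%, with no order. The order in Osa-GFP is given as a description, because the calls and their heights chose the members.

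**Figure D4:**
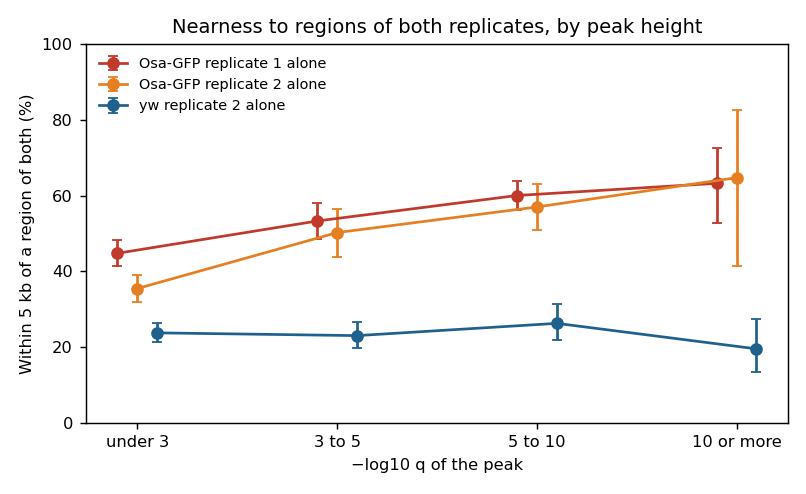
Share of regions within 5 kb of a region of both Osa-GFP replicates (y axis, percent, with 95% Wilson intervals) against the −log10 q of the peak in 4 bins (x axis) for regions of Osa-GFP replicate 1 alone, Osa-GFP replicate 2 alone and yw replicate 2 alone. The Osa-GFP curves climb to 63.2% and 64.7% in the top bin, and the yw curve stays between 19.5% and 26.3%.

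Distance and gene context went together. Among regions of replicate 1 alone, 9.23% of those up to 1 kb from a region of both replicates were at gene ends, 11.3% of those at 1 to 5 kb, 19.7% at 5 to 20 kb and 19.5% beyond 20 kb. Among regions of replicate 2 alone the shares were 6.61%, 6.64%, 16.4% and 17.8%. In replicate 1 the Wilson intervals of the nearest and the farthest bins ran from 7.03% to 12.03% and from 16.1% to 23.3%. In replicate 2 they ran from 4.11% to 10.5% and from 14.2% to 22.1%. These intervals hold for counting error over regions, which are not replicates. Over all positions the share was 15.1%. Neither positions nor yw regions were split by distance, so the pattern is not shown to be particular to these regions. Regions beyond 20 kb were also lower, with 27.1% and 38.1% of them at the lowest height called in replicates 1 and 2, against 13.5% and 18.6% of those up to 1 kb. The part of height in this pattern was not tested.

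Of the 1536 single-replicate regions within 5 kb, 900 (58.6%) had an Osa-GFP-specific region as the nearest one, while 52.8% of the regions of both replicates were Osa-GFP-specific. Seen from the recurrent sites, 1801 of 3344 regions of both replicates (53.9%) had a single-replicate region within 5 kb, against 642 of 2563 yw 1-library regions (25.0%). Regions found in different Osa-GFP libraries also lay near each other: 133 of 1954 regions of replicate 1 alone (6.81%) were within 1 kb of a region of replicate 2 alone, which is 3.97 times the share of all positions. Of the same 1954 regions, 142 (7.27%) were within 1 kb of a region of yw replicate 2 alone, 2.28 times the share of all positions. From replicate 2 alone the ratios were 4.0 to regions of replicate 1 alone and 1.80 to regions of yw replicate 2 alone.

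The nearest and farthest regions show the range. The nearest was at chr3L:10976418-10976539 by CG14147, found in replicate 2 alone with 7 fragments, centred 70 bp from an Osa-GFP-specific region. At chr3R:10518346-10518479, inside the homeobox gene hth, a replicate 1 region of 6 fragments was centred 72 bp from a shared region of 6 and 8 fragments. At chrX:2303880-2304022, inside the kinase gene Raf, a replicate 1 region of 5 fragments was centred 73 bp from an Osa-GFP-specific region of 15 and 7 fragments. These regions thus stood less than their own width from a recurrent site. The farthest lay in gene-poor sequence near the centromeres, such as chr2R:3873048-3873487, nearest to uex, at 1623198 bp with 6 fragments, and chr3R:1282271-1282532 inside the myosin gene Myo81F, at 952748 bp with 4 fragments.

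By nearest gene end, 1771 of 13922 protein-coding genes (12.7%) had a single-replicate region, against 10.4% with a region of both replicates and 14.4% with a yw 1-library region. Of the 1771 genes, 1124 had exactly 1, 312 had 3 or more and 85 had 5 or more. Of the 13922 genes, regions of replicate 1 alone touched 1265 and those of replicate 2 alone 897, with 391 genes in common. Whether 391 is many or few for genes of these territory widths was not tested. A region of both replicates was assigned to 855 of the 1771 genes, while 916 had none. Counted by regions, 63.8% of single-replicate regions had a nearest gene that also had a region of both replicates, against 33.3% of yw 1-library regions and 31.0% of all positions. Genes with wide territories, meaning all positions nearest to their ends, collect more regions, so densities per 100 kb of territory are given beside counts. Over all genes the density was 2.35 regions per 100 kb for single-replicate regions and 1.92 for yw 1-library regions, and the median number of single-replicate regions per gene was 0.

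The genes with most single-replicate regions had wide territories. The myosin gene Myo81F had 48 (16 in replicate 1, 32 in replicate 2) over a territory of 2543.6 kb, and ATbp had 27 (10 and 17) over 434.5 kb, both beside the centromeres of their arms. These had 18 and 27 yw 1-library regions as well. The next were hng3 with 11 (8 and 3) in 43.8 kb, hth with 10 (7 and 3) in 185.4 kb, and 4 genes with 9: the Toll-family receptor gene Tollo, the T-box gene bi, sano and the chromatin protein gene tou. Of 10 genes tied at 8, CG43188 and CG43658 come first by symbol. All 8 regions assigned to CG43188, a short gene, lay inside the span of luna, a Krüppel-like factor gene that surrounds it. At hng3 the density was 25.1 regions per 100 kb and at Tollo 18.5, whereas at Myo81F it was 1.89, below that of all genes. hth also held 27 regions of both replicates, 16 of them Osa-GFP-specific, and 6 yw 1-library regions.

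Wing patterning genes held many single-replicate regions. Among 30 genes of wing regional identity, 24 (80%, against 12.7% of all genes) had 1 or more, with a median of 2.5 per gene against 0 over all genes. Their median territory was 34.75 kb, against 3.9 kb for all genes. Their density was 6.24 per 100 kb, against 2.35 over all genes, while yw 1-library regions stood at 1.54 per 100 kb in the same genes, against 1.92 over all genes. By gene count the yw regions were also frequent in this list: 13 of the 30 genes (43.3%) had one, against 14.4% of all genes. For yw regions the share of genes and the density thus differed from all genes in opposite directions. Regions of both Osa-GFP replicates were at 26 of the 30 genes (86.7%, against 10.4% of all genes). Their density there was 8.32 per 100 kb, against 2.50 over all genes. They were also denser than single-replicate regions in most other lists, such as 15.4 at Notch, 14.4 at Hedgehog and 9.23 at vein genes. At proneural, Hox, muscle precursor, neuron, chemoreceptor and Cpr genes they were less dense. A high density was thus not particular to single-replicate regions. Outside 5 kb of any region of both replicates the density of single-replicate regions was 3.98 per 100 kb at the wing identity genes and 1.43 over all genes. In the lists described next it was 5.33 for vein genes (18 regions), 4.27 for Hedgehog (2), 3.85 for Wg (12), 2.54 for Notch (3) and 2.32 for Dpp genes (3). It was 1.91 for EGFR (7), 1.72 for Hippo and growth (3) and 1.65 for Hox genes (5). Each of these lists, wing identity included, thus differed from all genes by fewer regions per 100 kb than over whole territories. The Hedgehog, Notch, Dpp and Hippo values rest on 2 or 3 regions each. Among the later lists the same density was 4.55 for proneural (11 regions), 4.32 for muscle precursor (9) and 3.61 for tracheal genes (4). It was 3.39 for JNK and AP-1 (3) and 3.05 for JAK/STAT genes (2). Ecdysone, Cpr, SWI/SNF, hemocyte and planar polarity genes stood between 2.04 and 2.49. Chemoreceptor, neuron, ribosomal, germline and fat body genes stood below all genes, at 1.02 or less. High values were thus not particular to wing patterning genes. The lists were chosen with results of these data known, and share members, so the counts are descriptions without a test.

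Of the wing identity genes, hth, which sets hinge and proximal identity, had 10 regions. The Iroquois gene mirr, which patterns the notum, had 8, of which 5 were in replicate 1 and 3 in replicate 2. At mirr the replicate 1 peaks had 9, 9, 6, 7 and 7 fragments and the replicate 2 peaks 4, 5 and 5, at 175 to 12159 bp from a region of both replicates. Of these 8, 3 lay inside mirr and 5 outside it, up to 20115 bp from a gene end. The homeobox gene dve, active in the pouch, had 6 (5 and 1), 4 of them packed with the replicate 2 region into chr2R:22257262-22261709 on both sides of the start of an Osa-GFP-specific region at 22259518. The Pax-family gene toe had 6 (3 and 3).

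Among vein and intervein genes, 18 of 21 (85.7%) had a single-replicate region, with a median of 2 per gene and a density of 7.20 per 100 kb. Here yw 1-library regions were above their value over all genes, at 11 of 21 genes (52.4%) and 2.40 per 100 kb. bi (optomotor-blind), a Dpp target in the pouch, had 9, with 7, 6, 4, 8, 6, 5 and 4 fragments in replicate 1 and 5 and 8 in replicate 2. Its regions lay inside the gene and up to 13289 bp beyond its end. The zinc-finger genes salr and salm, neighbours on 2L that help place the veins and are Dpp targets, had 6 (5 and 1) and 5 (5 and 0). At salm the peaks had 8, 6, 8, 4 and 5 fragments and lay 1201 to 14062 bp from a region of both replicates. The Notch ligand gene Delta had 5 (4 and 1), with 7, 6, 9 and 4 fragments in replicate 1 and 7 in replicate 2.

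For the signalling pathways the values over all genes are again 12.7% of genes and 2.35 regions per 100 kb, and the lists are small. Replicates 1 and 2 alone stood at 1.46 and 0.884 per 100 kb over all genes, and yw 1-library regions at 14.4% of genes and 1.92 per 100 kb. Among 25 Notch pathway genes, 9 (36.0%) had a single-replicate region, at 7.12 per 100 kb, and 10 (40%) had a yw 1-library region, at 2.97 per 100 kb. Beside Delta, the receptor gene N itself had 5 (4 and 1), with 5, 9, 6 and 6 fragments in replicate 1 and 6 in replicate 2. All 5 lay inside the gene, among 12 regions of both replicates. The Notch glycosyltransferase gene fng and the protease gene kuz had 3 each. In the Wg pathway, 15 of 24 genes (62.5%) had a region, at 6.82 per 100 kb, with 34 regions from replicate 1 and 7 from replicate 2. Replicate 2 alone gave 1.16 per 100 kb there, and yw 1-library regions were at 9 genes (37.5%). The feedback inhibitor gene nkd and the kinase gene sgg had 6 each, the glypican gene dlp 5 and the ligand gene Wnt6 4.

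Among 15 Dpp pathway genes, 6 (40.0%) had a region, at 5.84 per 100 kb, and 5 (33.3%) a yw 1-library region, at 2.34 per 100 kb. The ligand gene dpp had 6, with 4, 8 and 5 fragments in replicate 1 and 6, 5 and 8 in replicate 2. Of these, 4 lay outside the gene, between chr2L:2467944 and 2474002, at 271 to 2081 bp from regions of both replicates. The regions of both libraries were interspersed along this stretch. The inhibitory Smad gene Dad had 4 (3 and 1), the receptor gene put 2 and the Smad gene Mad 1.

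The Hedgehog pathway had the highest density of the 24 lists at 8.63 per 100 kb, from 15 regions at 5 of 13 genes (38.5%). yw 1-library regions were at 2 of these genes, at 2.88 per 100 kb. The ligand gene hh had 6, all from replicate 1, with 7, 6, 5, 7, 14 and 12 fragments. The first 4 lay inside hh between chr3R:23133170 and 23134747, 667 to 2016 bp from the same region of both replicates, and the last 2 lay beyond the gene end, 518 and 359 bp from others. The tallest, at chr3R:23144175-23144695, had a fold of 10.2. en and inv, the homeobox genes of the posterior compartment, had 3 each, and the Hedgehog co-receptor gene boi had 2.

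Among 21 EGFR pathway genes, 12 (57.1%) had a region, at 4.59 per 100 kb, and as many had a yw 1-library region, at 2.07 per 100 kb. Replicate 1 alone gave 3.403 and replicate 2 alone 1.18 per 100 kb. The ligand gene vn had 5, and the kinase gene Raf, the ETS factor gene pnt and the inhibitor gene sty had 4 each. In the Hippo and growth list 9 of 18 genes (50%) had one, at 5.84 per 100 kb. Of its 23 regions 19 were from replicate 1 (4.83 per 100 kb), while replicate 2 alone gave 1.02, near its value over all genes. The protocadherin gene ds had 5, and the caspase inhibitor gene Diap1, the growth regulator gene Myc and the Hippo activator gene kibra had 4 each. At Diap1, a Yorkie target, the replicate 1 peaks had 8, 12 and 7 fragments and the replicate 2 peak had 5, all inside the gene. Of 12 planar cell polarity genes 3 had one (ds, fz and ft), of 10 JAK/STAT genes 3 (Stat92E, upd1 and upd2) and of 11 JNK and AP-1 genes 4 (kay, Mmp1, puc and egr). The densities of the last lists were 3.28, 5.01 and 5.93 per 100 kb, from 10, 6 and 8 regions, against 2.35 over all genes. Replicate 1 held 8, 5 and 5 of these regions, and replicate 2 alone gave 0.656, 0.835 and 2.23 per 100 kb, the first and second below its 0.884 over all genes. yw 1-library regions stood at 4.17 per 100 kb for JAK/STAT and 3.71 for JNK and AP-1 genes, above their 1.92 over all genes.

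**Figure D5:**
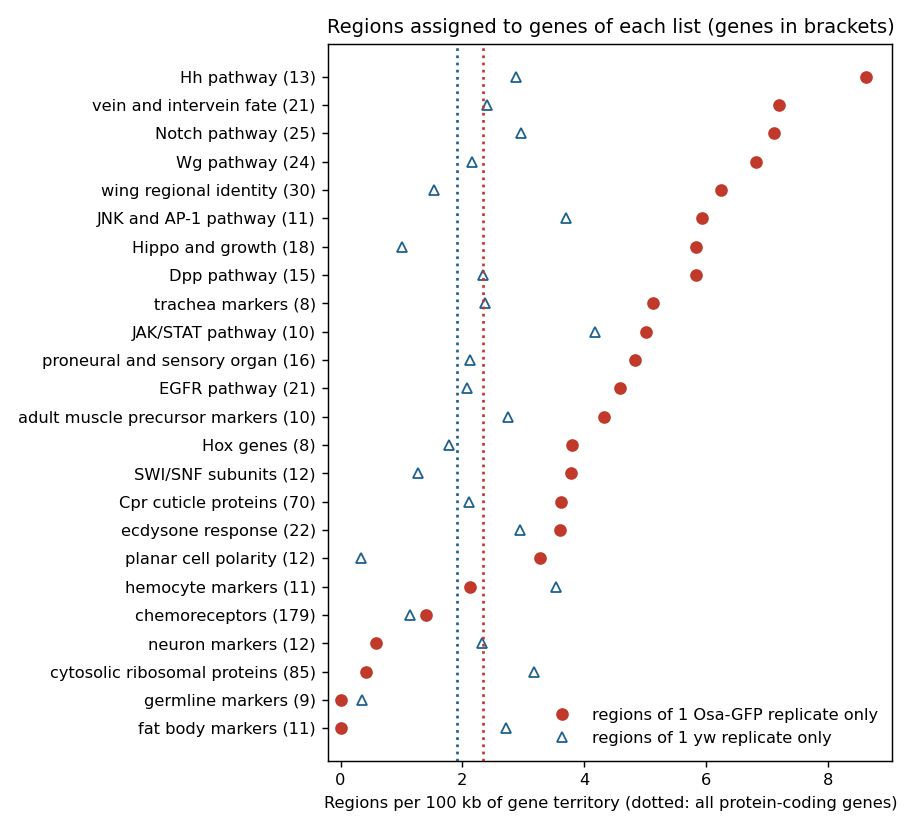
Density of regions per 100 kb of gene territory (x axis) for the 24 gene lists (y axis, with the number of genes in brackets); red points are regions of 1 Osa-GFP replicate only, blue triangles are regions of 1 yw replicate only, and dotted lines are the densities over all protein-coding genes, 2.35 and 1.92. Single-replicate regions reach 8.63 at the Hedgehog list and 6.24 at the wing identity list, and are at 0 for the germline and fat body lists.

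In the ecdysone response list 12 of 22 genes (54.5%) had a region, at 3.60 per 100 kb, and 16 (72.7%) had a yw 1-library region, at 2.95 per 100 kb. Over all genes the values were 12.7% and 2.35 per 100 kb for single-replicate regions, and 14.4% and 1.92 for yw 1-library regions. The median territory was 29.8 kb for ecdysone, 14.55 kb for proneural, 40.3 kb for Hox and 4.75 kb for SWI/SNF genes, against 3.9 kb over all genes. There were 7 single-replicate regions each at the BTB gene chinmo and the nuclear receptor gene ftz-f1 and 3 each at Eip93F and br. Among 16 proneural and sensory organ genes 9 had a single-replicate region (4.84 per 100 kb), with 3 at ac and 2 each at cpo, hry and sc. A yw 1-library region was assigned to 5 of the 16, at 2.12 per 100 kb. Of 8 Hox genes 5 had one (3.81 per 100 kb), and 5 also had a yw 1-library region. Antp, the Hox gene of the second thoracic segment, had 7 (2 and 5), lab 4, Ubx 2 and Scr 1. Among 12 SWI/SNF subunit genes 3 had a single-replicate region: Bicra with 3, osa itself with 2 (1 in each replicate) and d4 with 1. The density there was 3.79 per 100 kb, from 6 regions, and 2 of the 12 genes had a yw 1-library region, at 1.26 per 100 kb.

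Markers of other cell types of the disc and of cells outside it were counted in the same way, with 12.7% of genes and 2.35 regions per 100 kb over all genes. Adult muscle precursor markers had a region at 5 of 10 genes (4.33 per 100 kb), with 3 each at Mef2 and htl, and tracheal markers at 5 of 8 genes (5.13 per 100 kb), with 5 at vvl and 4 at dysf. The 3 regions at htl, the FGF receptor gene of these precursors, had 9, 8 and 5 fragments and lay 18029 to 33759 bp from any region of both replicates. Hemocyte markers had one at 3 of 11 genes (2.12 per 100 kb), with 1 each at gcm2, lz and ush. Neuron markers had one at 2 of 12 genes (0.580 per 100 kb), with 1 each at Rdl and Sh. yw 1-library regions were at 6 of 10 muscle precursor, 3 of 8 tracheal, 4 of 11 hemocyte and 6 of 12 neuron markers, so in 3 of these 4 lists they reached more genes than the single-replicate regions did. The 9 germline and 11 fat body markers had none, and lists of this size cannot set a count of 0 apart from 12.7%. AGO3 alone made up 252.1 of the 282 kb of germline territory, so that list says little about the others.

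Cytosolic ribosomal protein genes, which are short and active in every cell, held few single-replicate regions. Of 85 genes, 2 (RpL21 and RpS23) had one (2.35%, against 12.7% of all genes), at 0.423 per 100 kb, against 2.35 over all genes. Regions of both Osa-GFP replicates were also few there, at 3 of the 85 genes (3.53%, against 10.4% of all genes). Their density was 0.635 per 100 kb, against 2.50 over all genes. The median territory was 1.9 kb, against 3.9 kb over all genes. yw 1-library regions were assigned to 13 of these genes (15.3%), close to the 14.4% of all genes, at 3.17 per 100 kb, against 1.92 over all genes. The rule leaves out regions with a yw peak, and its part in the low count was not tested.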

How the data were processed

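One narrowPeak list per library was deposited, on build dm6. Bowtie2 2.3.4.1, MACS2 2.1.2, SAMtools 1.10, deepTools 2.4.1 and Picard 2.2.4 were used, per the submitters' processing notes. No calling threshold is given in the sources used here. In the deposited lists the fold is the authors' caller's ratio at the summit, with 1 added to the fragments and to the background. The deposited p and q values are −log10 values. The deposited score was not used. Each list names 1 library, so calls were per library.

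Peaks were merged at 1 bp overlap. Summit fragments were recovered from the deposited folds, taken as fragments plus 1 over background plus 1, and were whole for 100% of peaks at a tolerance of 0.01. Genes were taken from a RefSeq table of the same assembly (13922 protein-coding genes among 17872 rows), which has no strand, so either end of a gene stood for its start site, and each region went to the gene with the nearest end. Exons and introns were not separated. Random positions were replaced by all positions every 100 bp. Sequence was not used here, so motifs were not searched. Shares carry 95% Wilson intervals; PCR fragments and adjacent peaks are not independent, so the intervals hold for counting error only. Fisher's exact tests ran across regions and exact permutation tests across libraries, with Python 3.11.15, numpy 2.4.6, pandas 2.3.3 and scipy 1.17.1. The procedure was tested on simulated data.

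Named regions were, per Osa-GFP replicate, the 8 with the highest fold and the 5 farthest from and nearest to a region of both replicates, of which a selection is printed. Named genes were the 10 with most single-replicate regions and up to 4 per list. The members and lists were chosen with earlier results of these data known. Titles were corrected by the submitters in an update of the record, and the corrected ones were used.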

Additional observations from a re-analysis of the deposited data

How the results depend on the processing

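The gene-end and 5 kb differences between single-replicate and yw 1-library regions kept their direction and call under all 16 and 18 alternatives that gave a value, at −35.3 to −8.51 and 15.0 to 30.4 points. Calls here are those of Fisher's exact tests across regions, which are not replicates. The gene-end difference from Osa-GFP-specific regions kept its call in 12 of 14, and was 2.35 points (Fisher's exact p = 0.115) at a −log10 q of 10 or more and 2.18 points (exact p = 0.0748) for replicate 2 alone. The number of regions was 1628 and 780 at a −log10 q of 5 and 10 or more, 2071 with the same number of peaks in the 3 deep lists, 1768 with peaks up to 1000 bp apart joined, and 1954 and 1182 for replicates 1 and 2 alone. Cuts on q or peak number came before merging, so sites whose other peaks fell below a cut, recurrent ones included, became members. Only 87 and 17 regions of replicates 1 and 2 alone had a −log10 q of 10 or more, so values under these cuts describe another set. The gene-end share was 11.5% at a −log10 q of 10, 15.4% with the 1000 bp join, 12.6% for replicate 2 alone, 9.15% and 21.7% with windows of 250 and 1000 bp, 18.3% with all genes of the table, and 16.8% with or without a yw peak. The inside-gene share was 60.8% and 51.9% with those windows. The outside-gene share was 32.1% at a −log10 q of 10, 26.7% with the 1000 bp join, 26.4% with the 1000 bp window and 24.2% with all genes. The share within a set distance was 51.3% and 40.9% at a −log10 q of 5 and 10, 52.6% with equal peak numbers, 45.3% and 30.5% with joins of 200 and 1000 bp, 52.4% and 43.4% for replicates 1 and 2 alone, 24.3%, 34.4%, 60.3% and 73.3% at 1, 2, 10 and 20 kb, and 34.6% to Osa-GFP-specific regions. Genes with a region numbered 998 and 581 at a −log10 q of 5 and 10, and 897 for replicate 2 alone. The cause of these shifts was not tested. Leaving out an Osa-GFP replicate turns every region of the other one without a yw peak into a member, recurrent sites included, so those values describe another set. With that limit, leaving out 1 library gave gene-end shares from 11.1% (without Osa-GFP replicate 1) to 16.4% (without yw replicate 2), outside-gene shares from 27.4% to 32.1%, inside-gene shares from 56.3% to 57.3%, 1522 to 1991 genes and 3154 to 3863 regions. Without an Osa-GFP replicate no region of both exists, so distances have no value. The alternatives that keep yw peaks, use regions over 1 kb away or pair libraries were chosen after seeing the data. The labels do not say that replicate numbers pair libraries. Paired by number (a replicate block), Osa-GFP minus yw was −5.49 and −22.2 points for the gene-end share (mean −13.8) and 29.8 and 19.7 points for the share within 5 kb (mean 24.8), and the exact sign-flip p was 0.5, the smallest that 2 pairs allow. Start sites and motifs were not run, because the gene table has no strand and sequence was not used. At 4 to 8 fragments per summit, depth limits any statement on a single region.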

Other observations

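The single-replicate regions were spread over the large arms at like densities. They numbered 539 on 2L, 547 on 2R, 648 on 3L, 742 on 3R and 650 on X, which is 21.6 to 27.6 per Mb, and 10 on arm 4, which is 7.58 per Mb. The X held 20.7% of single-replicate regions, 18.3% of Osa-GFP-specific regions and 24.0% of yw 1-library regions, and made up 17.6% of the length of the arms. Within 5 kb of a region of both replicates lay 43.2% to 53.2% of single-replicate regions on the large arms, against 21.5% to 26.0% of yw 1-library regions. The order of these sets was the same on each of the 5 large arms, and the opposite on arm 4, where 10% of 10 single-replicate regions and 15.8% of 19 yw 1-library regions lay within 5 kb.

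Sensory receptor and cuticle genes also held some. Among 179 chemoreceptor genes, 17 (9.50%, against 12.7% of all genes) had a single-replicate region, at 1.41 per 100 kb, with 3 at the odorant receptor gene Or67d and 2 each at the gustatory receptor gene Gr93a and the ionotropic receptor gene Ir67c. Among 70 Cpr cuticle protein genes, 9 (12.9%) had one, at 3.63 per 100 kb, with 2 each at Cpr35B, Cpr62Bc and Cpr65Ec and 1 at Cpr11A. The share of Cpr genes was close to that over all genes, and the share of chemoreceptor genes was below it.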
